A study of Homo sapiens with 6 samples.

Results

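Collagen hydroxylases are enzymes of the endoplasmic reticulum that add hydroxyl groups to proline and lysine residues of newly made procollagen chains, using oxygen, iron, 2-oxoglutarate and ascorbate. Hydroxyproline holds the collagen triple helix together at body temperature, and hydroxylysine carries sugars and forms the crosslinks of the mature fibre. The genes described here are 10 listed symbols, chosen by name: the prolyl 4-hydroxylase alpha subunits P4HA1, P4HA2 and P4HA3, the lysyl hydroxylases PLOD1, PLOD2 and PLOD3, the prolyl 3-hydroxylase P3H1 with its relative P3H4 and its cofactor CRTAP, and the collagen chaperone SERPINH1. All 10 were found among the 60569 gene names of the expression table. The list was drawn up with the overexpression contrast already known. The differences between groups are therefore given for these genes as descriptions, without p-values. Which of them passed the test across all genes is stated as well, and neither supports anything further.

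The libraries were made from MDA-MB-453, a human breast cancer cell line of luminal apocrine type. One group of 3 libraries came from cells given a construct that overexpresses ZNF207, a zinc finger protein of mitotic chromosomes. The other 3 libraries came from the same line given the control vector, and the study describes the libraries as independent biological replicates. The promoter of the construct, the time of harvest and the oxygen tension of the culture are not stated in the labels. Library columns were matched to samples by their names alone. Values are FPKM, fragment numbers scaled by transcript length and library total, so levels of different genes can be set side by side. No further scaling between libraries was applied in the analysis reported, and calls under other scalings are given at the end.

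ZNF207 itself stood at 885, 786 and 750 FPKM in the overexpression libraries and at 69.2, 67.0 and 63.7 FPKM in the control libraries. FPKM summed to 589550 to 611013 in overexpression libraries and 595032 to 612875 in control libraries, and read depth is unknown. The luminal markers ERBB2, FOXA1, GATA3, XBP1, KRT8, KRT18 and EPCAM were above the detection filter. Of 12 fibroblast markers, 3 passed the filter, COL1A1, FN1 and VIM. THY1 was listed at 0 in all 6 libraries, and DCN, LUM, PDGFRA, PDGFRB and POSTN reached at most 0.111 FPKM in any library. The 12 fibroblast markers summed to 10.7 to 15.2 FPKM in overexpression libraries and 13.9 to 15.8 FPKM in controls. Fewer cells of one kind and less RNA per cell cannot be told apart in such bulk libraries.

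P4HA1, P4HA2, PLOD1 and PLOD2 were lower in every overexpression library than in any control library. The other 5 genes above the filter, PLOD3, P3H1, P3H4, CRTAP and SERPINH1, had ranges that overlapped between the groups. The lower genes were thus the 2 prolyl 4-hydroxylase alpha subunits above the filter and 2 of the 3 lysyl hydroxylases, with P4HA3 below the filter. P3H1, P3H4 and CRTAP of the prolyl 3-hydroxylase branch and the chaperone SERPINH1 showed no such separation. Lower, non-overlapping ranges were also seen in 10.4% of all 13185 tested genes, and higher ones in 7.61%.

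**Figure D1:**
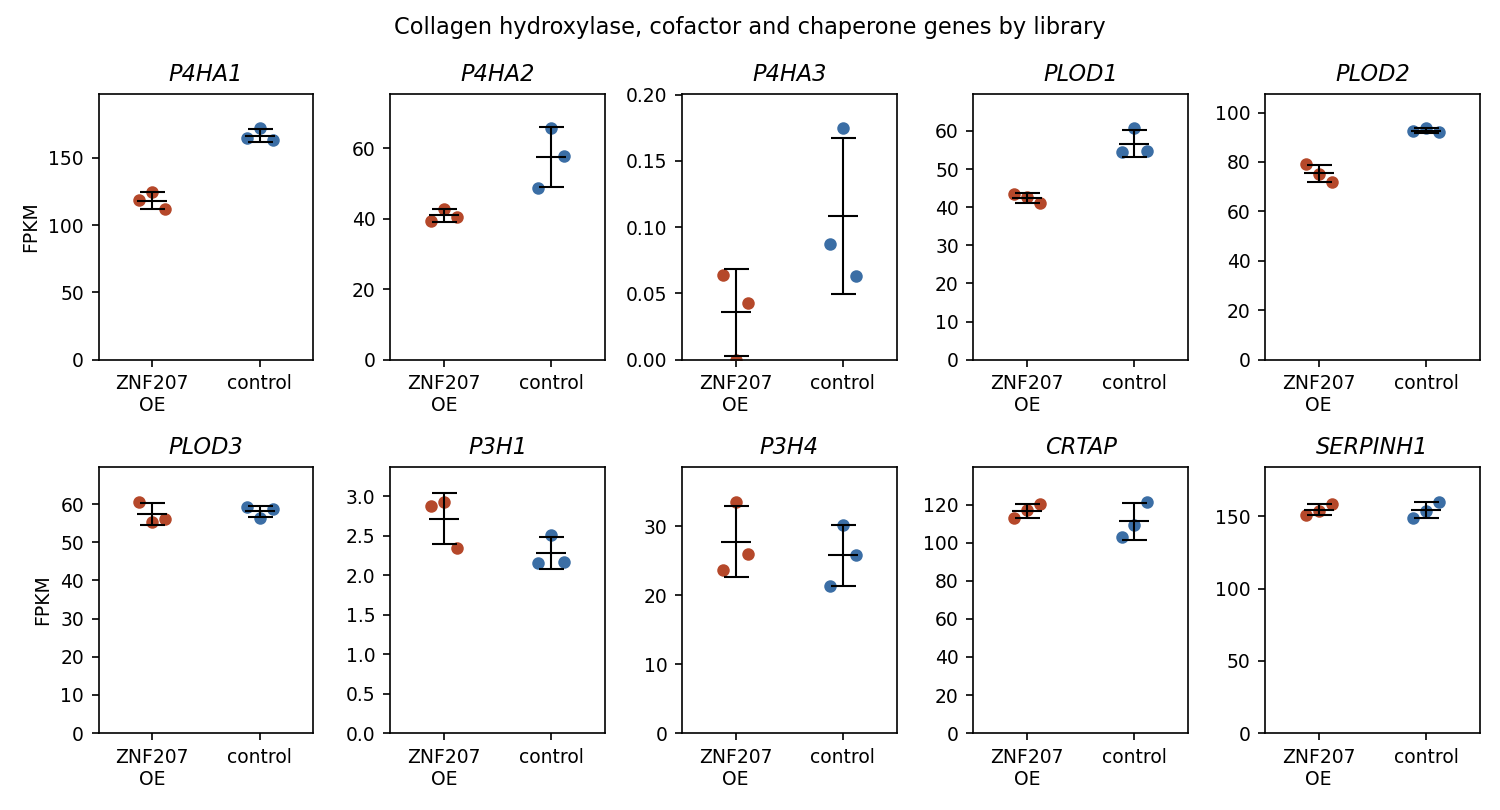
FPKM (vertical axis, from 0, with its own scale in each panel) of the 10 genes in the 3 ZNF207 overexpression (OE, left) and 3 control libraries (right). Points are libraries, and bars are the mean ± SD. P4HA1, P4HA2, PLOD1 and PLOD2 do not overlap between the groups, and P4HA3 is near 0 in all libraries.

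Short stretches upstream of 5 of the genes are shown because P4HA1, P4HA2, PLOD1 and PLOD2 are known in other cells as targets of the hypoxia-inducible factor HIF-1, which binds the core ACGTG or GCGTG. The 250 bases before each RefSeq gene start (GRCh38.p14) were searched for both 5-letter cores on both strands, where the opposite strand reads CACGT or CACGC. A palindrome CACGTG counts as a match on each strand. Each line is a 30-base window on the gene's own strand, 5′ to 3′, with the core in capitals.
P4HA1, chr10:73096936-73096965, minus strand: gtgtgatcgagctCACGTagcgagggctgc
PLOD1, chr1:11934636-11934665, plus strand: ggcgcgggggaggGCGTGgaggggcggggt
PLOD1, chr1:11934679-11934708, plus strand: gggcgggcccagtGCGTGgcagcgggacct
PLOD2, chr3:146161374-146161403, minus strand: agcgctGCGTGagcctccaCACGTagccgc
PLOD2, chr3:146161314-146161343, minus strand: gcaaacagtccagACGTGgggcccaggagg
P3H1, chr1:42767232-42767261, minus strand: tgcgcataaaggcGCGTGggcggagcttcc
CRTAP, chr3:33113836-33113865, plus strand: tgcgcatcagcctGCGTGaaccagtgcgca
PLOD2 held 3 matches, PLOD1 held 2, and P4HA1, P3H1 and CRTAP held 1 each, so 5 of the 8 genes with a sequence had at least 1. P4HA2, PLOD3 and SERPINH1 held none in this window, and P4HA3 and P3H4 were not searched. ACGTG in either orientation was found in P4HA1 and PLOD2 among these genes. At least 1 match was present in 58.7% of the 9704 promoters of tested genes and in 43.1% of all 27305 promoters, so the core alone is common. The P4HA1, PLOD1 and PLOD2 windows lie inside the genes as GENCODE v29 draws them, since other transcripts of these genes start further upstream, and the P3H1 and CRTAP windows lie outside.

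The prolyl 4-hydroxylase is a tetramer of 2 alpha subunits, which carry the active site, and 2 beta subunits encoded by P4HB. P4HA1, the main alpha subunit of most cells (chromosome 10, 73007217 to 73096974, minus strand, GRCh38), had 119, 124 and 112 FPKM in overexpression libraries. In control libraries it had 165, 172 and 163 FPKM. The highest overexpression library was well below the lowest control. Its means were 118 ± 6.37 FPKM in overexpression libraries and 167 ± 4.78 FPKM in controls (SD, n = 3 each), a ratio of 0.710 and a log2 change of -0.49 (SE 0.06) on the log2(FPKM + 1) scale. The share of tested genes with a more negative log2 change was 1.19% for P4HA1, 4.73% for PLOD2, 45.5% for PLOD3 and 90.7% for P3H1. It is a description of genes chosen with this contrast known, not a test.

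P4HA2, the second alpha isoform (chromosome 5, 132191838 to 132295315, minus strand), had 39.3, 42.8 and 40.6 FPKM in overexpression libraries and 48.7, 65.7 and 57.8 FPKM in control libraries. The overexpression libraries lay close together, and the controls were spread out, with control replicate 1 nearest to the overexpression group. The means were 40.9 ± 1.77 FPKM in overexpression libraries and 57.4 ± 8.49 FPKM in controls (SD, n = 3 each), a ratio of 0.713 and a log2 change of -0.47 (SE 0.10). The listed locus of P4HA2 is shared with 8 other rows, among them its antisense gene P4HA2-AS1 and PDLIM4, and how reads were divided among them is not stated in the labels or headers. Other listed loci are also shared: that of P4HA1 with 3 rows, P4HA3 with 5, PLOD2 with 2, and PLOD3 and CRTAP with 1 each. That of ZNF207 is shared with 7.

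P4HA3, the third alpha isoform (chromosome 11, 74235801 to 74311657, minus strand), was listed at 0.0642, 0 and 0.0427 FPKM in overexpression libraries and at 0.0871, 0.175 and 0.0630 FPKM in controls. It did not pass the filter of 1 FPKM in at least 3 libraries and was not tested, which leaves 9 of the 10 genes in the fit across all genes.

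P4HA1 and P4HA2 were lower in about the same proportion. Within each library P4HA1 stood at 3.01, 2.90 and 2.75 times P4HA2 in overexpression cells and at 3.38, 2.62 and 2.82 times in control cells. P4HA1 made up 74.3 ± 0.878% of the summed alpha subunit FPKM in overexpression libraries and 74.4 ± 2.47% in controls (SD, n = 3 each). The balance between the 2 isoforms therefore differed by less than the spread between control libraries. Their sum, with P4HA3, was 159 ± 7.53 FPKM in overexpression libraries and 224 ± 12.5 FPKM in controls.

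The beta subunit P4HB, which is also protein disulfide isomerase and serves many other proteins, was present in excess of the alpha subunits in every library. It had 391, 398 and 387 FPKM in overexpression libraries and 425, 465 and 441 FPKM in controls. The groups did not overlap, but the difference did not pass the test across all genes (log2 change -0.18, SE 0.05, limma adjusted p = 0.213). The summed alpha subunits stood at 0.404, 0.420 and 0.393 of P4HB in overexpression libraries and at 0.502, 0.512 and 0.501 of P4HB in controls. Alpha subunit RNA per beta subunit RNA was thus lower in each overexpression library, on a ratio that does not depend on the scaling of the libraries.

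**Figure D2:**
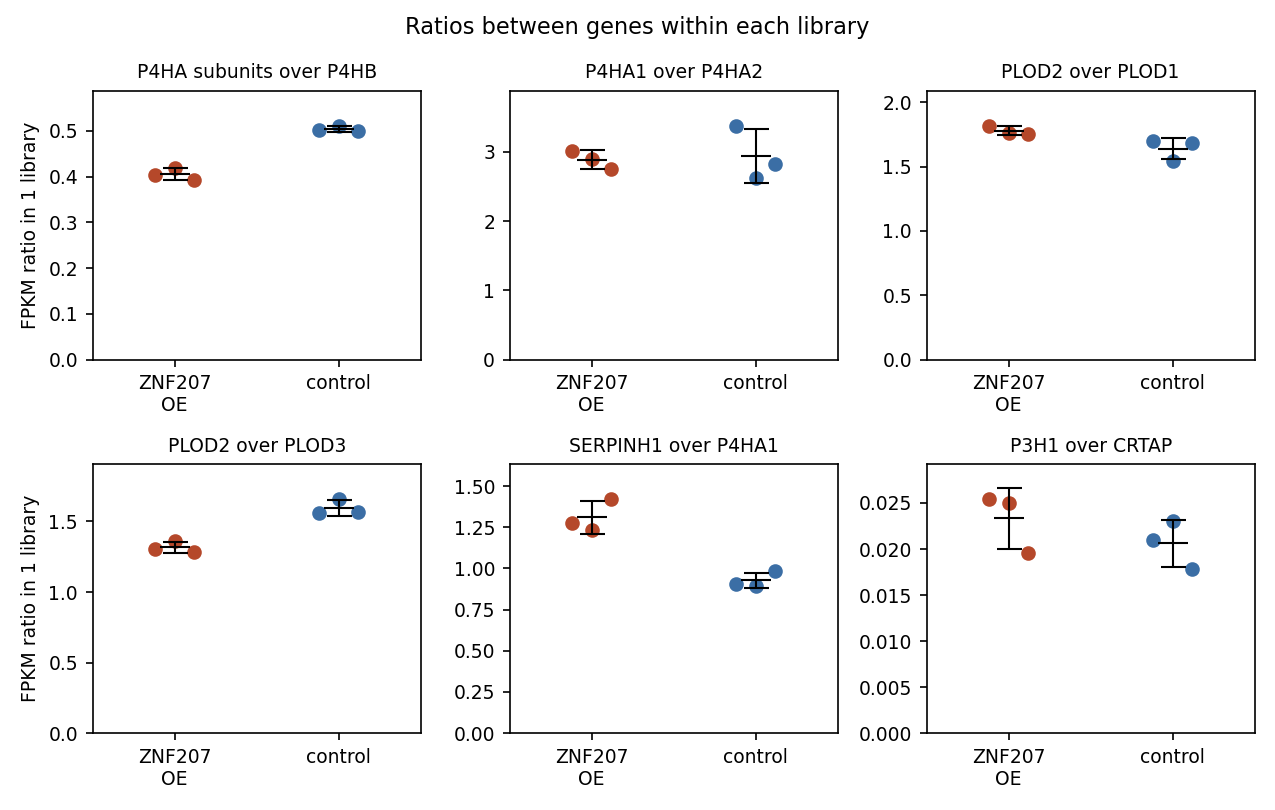
Ratios of FPKM between genes of 1 library (vertical axes, from 0) in ZNF207 overexpression (OE, left) and control libraries (right). Points are libraries, and bars are the mean ± SD of 3. The alpha-to-beta subunit ratio and PLOD2 over PLOD3 are lower in overexpression libraries without overlap between the groups. PLOD2 over PLOD1 and SERPINH1 over P4HA1 are higher without overlap, whereas P4HA1 over P4HA2 and P3H1 over CRTAP overlap.

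The lysyl hydroxylases differ in where they act: PLOD1 on the helical part of the chain, PLOD2 on the telopeptides, where it sets the kind of crosslink, and PLOD3 also as a glycosyltransferase. PLOD1 (chromosome 1, 11934205 to 11975538, plus strand) had 43.5, 42.7 and 41.0 FPKM in overexpression libraries and 54.5, 60.7 and 54.6 FPKM in controls. The overexpression libraries were all below the controls, and control replicate 2 was the highest. The means were 42.4 ± 1.25 FPKM in overexpression libraries and 56.6 ± 3.54 FPKM in controls (SD, n = 3 each), with a log2 change of -0.41 (SE 0.06). No other gene shares its listed locus.

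PLOD2 (chromosome 3, 146069440 to 146163653, minus strand) had 79.0, 75.1 and 72.1 FPKM in overexpression libraries and 92.4, 93.7 and 92.0 FPKM in controls. The 3 controls agreed closely, and the overexpression libraries were all lower and more spread. The means were 75.4 ± 3.49 FPKM in overexpression libraries and 92.7 ± 0.888 FPKM in controls (SD, n = 3 each), with a log2 change of -0.30 (SE 0.05), the smallest difference among the 4 lower genes.

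PLOD3 (chromosome 7, 101205977 to 101218420, minus strand) had 60.6, 55.3 and 56.0 FPKM in overexpression libraries and 59.2, 56.5 and 58.8 FPKM in controls. These ranges overlapped, and the log2 change was -0.02 (SE 0.06). Within a library PLOD2 stood at 1.32 ± 0.0382 times PLOD3 in overexpression cells and 1.59 ± 0.0550 times in control cells (SD, n = 3 each). PLOD2 stood at 1.78 ± 0.0351 times PLOD1 in overexpression cells and 1.64 ± 0.0846 times in control cells, so PLOD1 was lower by a larger proportion than PLOD2. The 3 lysyl hydroxylases summed to 175 ± 7.21 FPKM in overexpression libraries and 207.5 ± 2.98 FPKM in controls.

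The prolyl 3-hydroxylase complex modifies single prolines of fibrillar collagens and consists of the enzyme P3H1, the helper protein CRTAP and cyclophilin B, encoded by PPIB. P3H1 (chromosome 1, 42746335 to 42767084, minus strand) was low, with 2.87, 2.93 and 2.35 FPKM in overexpression libraries and 2.15, 2.51 and 2.17 FPKM in controls. Overexpression replicate 3 lay inside the control range. The log2 change was 0.18 (SE 0.13).

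CRTAP (chromosome 3, 33113979 to 33147773, plus strand) had 113, 117 and 120 FPKM in overexpression libraries and 103, 109 and 121 FPKM in controls, with a log2 change of 0.07 (SE 0.07). PPIB had 284 ± 5.54 FPKM in overexpression libraries and 295 ± 6.41 FPKM in controls (SD, n = 3 each, log2 change -0.05, SE 0.05, limma adjusted p = 0.692). Its ranges did not overlap, by a narrow margin: at most 288 FPKM in overexpression libraries and at least 289 FPKM in controls. The enzyme of this complex was therefore far below its partners in both groups: P3H1 stood at 0.0233 ± 0.00330 of CRTAP in overexpression libraries and at 0.0206 ± 0.00258 of CRTAP in controls. Of the other prolyl 3-hydroxylases, P3H2 was listed at 0.343 to 1.11 FPKM in overexpression libraries and 0.521 to 1.28 FPKM in controls. P3H3 was at 0 to 0.0530 FPKM in overexpression libraries and 0 to 0.441 FPKM in controls.

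P3H4 is a relative of the prolyl 3-hydroxylases that lacks the catalytic part and, in mice, supports lysyl hydroxylation of skin collagen together with PLOD1 and P3H3. It is encoded on chromosome 17 (41801947 to 41812604, minus strand). It had 23.7, 33.6 and 26.0 FPKM in overexpression libraries and 21.4, 30.2 and 25.9 FPKM in controls. Replicate 2 was the highest library of each group, and the ranges overlapped (log2 change 0.10, SE 0.14). P3H4 RNA was thus present where RNA of its partner P3H3 was near 0 and RNA of its partner PLOD1 was lower in overexpression cells.

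SERPINH1, also called HSP47, binds the folded procollagen helix and escorts it out of the endoplasmic reticulum (chromosome 11, 75562056 to 75572783, plus strand). It had 151, 153 and 159 FPKM in overexpression libraries and 149, 154 and 160 FPKM in controls. The groups lay almost on top of each other, with a log2 change of 0.00 (SE 0.05). SERPINH1 stood at 1.31 ± 0.0984 times P4HA1 in overexpression libraries and at 0.927 ± 0.0473 times P4HA1 in controls (SD, n = 3 each), so the order of these genes differed between the groups.

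By mean level, the order in overexpression libraries was SERPINH1, P4HA1, CRTAP, PLOD2, PLOD3, PLOD1, P4HA2, P3H4, P3H1 and P4HA3. In controls it was P4HA1, SERPINH1, CRTAP, PLOD2, PLOD3, P4HA2, PLOD1, P3H4, P3H1 and P4HA3. P4HA1 and CRTAP overlapped in overexpression libraries, as did PLOD1 and P4HA2. In controls PLOD3, P4HA2 and PLOD1 overlapped. The other neighbours in each order had ranges that did not overlap. The 10 genes summed to 636 ± 10.03 FPKM in overexpression libraries and 725 ± 26.5 FPKM in controls.

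In the fit across all 13185 tested genes, 28 genes passed the threshold (limma, adjusted p under 0.05), which is 0.212% of them, with 0.0531% higher and 0.159% lower. Of the 9 tested hydroxylase genes, 2 were past this threshold, P4HA1 and PLOD1, both lower. In 16 alternative analyses P4HA1 was past it in 11 and PLOD1 in 4. PLOD1 was not past it with TPM, median-of-ratios or quantile scaling. Because the list was made with this contrast known, nothing is read from these counts. Over the same 16 alternatives the number of hydroxylase genes past the threshold ran from 0 to 4. It was 3 with the filter at 5 FPKM and 4 with the replicate number as a block. It was 0 in 5 of them, namely without a filter on low values, without a variance trend, and without overexpression replicate 1, overexpression replicate 3 or control replicate 2, with 4 of the hydroxylase genes at an unadjusted p under 0.05 in each of these limma fits. At that looser level, 5.08% of all tested genes were higher and 7.03% lower. The median log2 change of the 9 genes was -0.02 and that of all tested genes was -0.01, since 4 genes lay well below 0 and 5 near or above it.

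**Figure D3:**
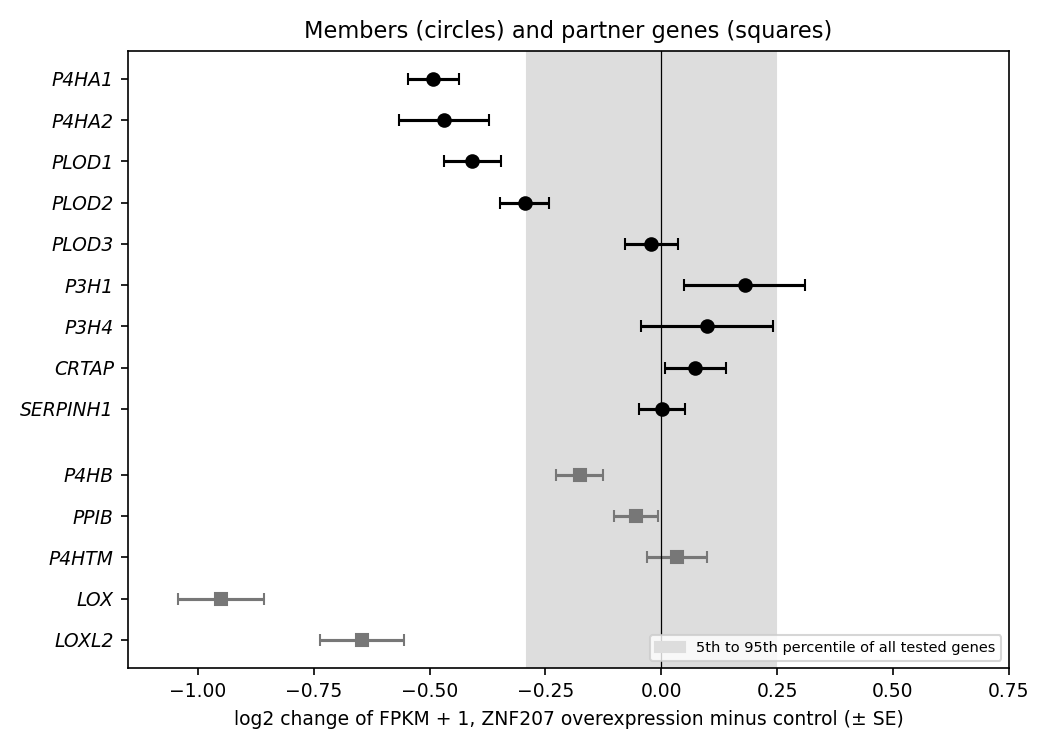
Log2 change of FPKM + 1, overexpression minus control (horizontal axis, bars ± SE), for the 9 tested genes (circles) and 5 genes of partner proteins (squares). The grey band spans the 5th to 95th percentile of all tested genes, -0.29 to 0.25. P4HA1, P4HA2 and PLOD1 lie left of the band, PLOD2 at its edge, and the other circles inside it.

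Genes whose log2 level over the 6 libraries was most like that of P4HA1 included PDK1 (Pearson r = 0.997), PGK1 (0.996), LDHA (0.995) and ENO1 (0.995), among 9789 genes with a mean of 5 FPKM or more. These values describe 6 libraries that share their 2 groups, and any gene with a clear group difference scores high. PDK1 had 19.9, 21.4 and 18.5 FPKM in overexpression libraries and 31.2, 32.7 and 29.3 FPKM in controls. Among the hydroxylase genes the same measure against P4HA1 was 0.982 for PLOD1, 0.975 for PLOD2 and 0.904 for P4HA2. With each group centred on its own mean it was 0.936 for P3H1, 0.693 for PLOD1, 0.666 for P3H4, 0.534 for PLOD2 and 0.461 for P4HA2, and below 0 for PLOD3, CRTAP and SERPINH1. Among the hydroxylase genes, the closest within-group match to P4HA1 was thus P3H1, which was not lower in overexpression cells. That value rests on 6 libraries and on a gene at 2.15 to 2.93 FPKM.

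The remaining genes of the collagen pathway were counted from lists that do not include the 10 genes. The substrates were little expressed: of 44 collagen chain genes, 11 were tested and 2 were listed at 0 throughout. The highest were COL18A1, a basement membrane collagen, with 14.2 ± 0.801 FPKM in overexpression libraries and 15.6 ± 1.88 FPKM in controls, COL1A1, a chain of type I collagen, with 9.09 ± 1.01 FPKM in overexpression libraries and 10.2 ± 1.25 FPKM in controls, and COL9A3 with 5.14 ± 0.499 FPKM in overexpression libraries and 4.78 ± 1.01 FPKM in controls (SD, n = 3 each). COL1A2, the partner chain of COL1A1, was at or below 0.456 FPKM in every library. None of the 11 chains passed the limma test, with an unadjusted p under 0.05 for 1 that was higher and 0 that were lower. The smallest p belonged to COL12A1 (1.89 ± 0.541 FPKM in overexpression libraries and 1.09 ± 0.0897 FPKM in controls, adjusted p = 0.337) and COL5A1 (2.46 ± 0.478 FPKM in overexpression libraries and 3.23 ± 0.417 FPKM in controls, adjusted p = 0.464). Every overexpression value of COL12A1 was above every control value, whereas COL5A1 overlapped.

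Downstream of hydroxylation, 2 of 9 tested genes of collagen processing and crosslinking passed the limma threshold as lower, 0 as higher, and 7 did not pass (median log2 change -0.01). Over all tested genes, 0.159% passed it as lower. The unadjusted limma p was under 0.05 for 4 genes of this list that were lower and 0 that were higher. Over all tested genes these shares were 7.03% lower and 5.08% higher. LOX, the oxidase that starts crosslinking of lysine and hydroxylysine, had 5.05, 5.64 and 5.18 FPKM in overexpression libraries and 11.98, 11.05 and 10.45 FPKM in controls (log2 change -0.95, SE 0.09, limma adjusted p = 0.00414). Its relative LOXL2 had 19.9, 18.8 and 16.7 FPKM in overexpression libraries and 28.8, 32.7 and 27.0 FPKM in controls (log2 change -0.65, SE 0.09, limma adjusted p = 0.0331). The call of LOX was lost in 1 of 16 alternatives, without a filter (adjusted p = 0.0657). That of LOXL2 was lost in 11 of 16, among them every one that left out a library (0.0518 to 0.189 over the 11).

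Procollagen folding and export held 23 tested genes, P4HB and PPIB among them, with 0 past the limma threshold and a median log2 change of 0.03. The unadjusted limma p was under 0.05 for 4 that were higher and 5 that were lower, P4HB among the lower ones. PDIA3, a disulfide isomerase, had 160 ± 9.01 FPKM in overexpression libraries and 195 ± 10.7 FPKM in controls (SD, n = 3 each, limma adjusted p = 0.108). The general chaperone HSPA5 differed in the other direction, with 194 ± 8.37 FPKM in overexpression libraries and 164 ± 7.63 FPKM in controls (adjusted p = 0.127). Genes of the same compartment as the hydroxylases therefore lay on both sides of 0.

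The enzymes share their cofactors with the wider 2-oxoglutarate dioxygenase family, of which P4HTM, a transmembrane relative, had 26.7 ± 0.687 FPKM in overexpression libraries and 26.0 ± 1.404 FPKM in controls (limma adjusted p = 0.876). Of 24 tested dioxygenases of other kinds, 0 passed the limma threshold, with an unadjusted p under 0.05 for 1 that was higher and 4 that were lower (median log2 change -0.05). EGLN1, the prolyl hydroxylase that marks HIF alpha subunits for degradation, had 32.0, 31.4 and 27.6 FPKM in overexpression libraries and 37.4, 45.3 and 37.7 FPKM in controls (log2 change -0.39, SE 0.09, adjusted p = 0.117). ALKBH5, an RNA demethylase, had 90.6 ± 3.58 FPKM in overexpression libraries and 103 ± 6.05 FPKM in controls (adjusted p = 0.247). Both genes had lower, non-overlapping ranges without passing the test.

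For the supply of ascorbate, iron and 2-oxoglutarate, 0 of 25 tested genes passed the limma threshold, with an unadjusted p under 0.05 for 4 that were higher and 1 that was lower, and a median log2 change of 0.00. OGDH, which consumes 2-oxoglutarate in the citric acid cycle, had 28.7, 28.3 and 28.9 FPKM in overexpression libraries and 24.0, 22.5 and 22.8 FPKM in controls (log2 change 0.30, SE 0.06, adjusted p = 0.0883). SLC2A1, a glucose carrier that also takes up oxidised ascorbate, had 209 ± 14.8 FPKM in overexpression libraries and 259 ± 22.9 FPKM in controls (adjusted p = 0.131). In proline and glycine synthesis 0 of 10 genes passed the limma threshold, with an unadjusted p under 0.05 for 2 that were higher and 1 that was lower. PRODH, which breaks down proline, had 2.92 ± 0.0422 FPKM in overexpression libraries and 1.99 ± 0.385 FPKM in controls (adjusted p = 0.291). PHGDH, which opens the serine and glycine pathway, had 91.2 ± 5.90 FPKM in overexpression libraries and 105 ± 9.47 FPKM in controls (adjusted p = 0.332).

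**Figure D4:**
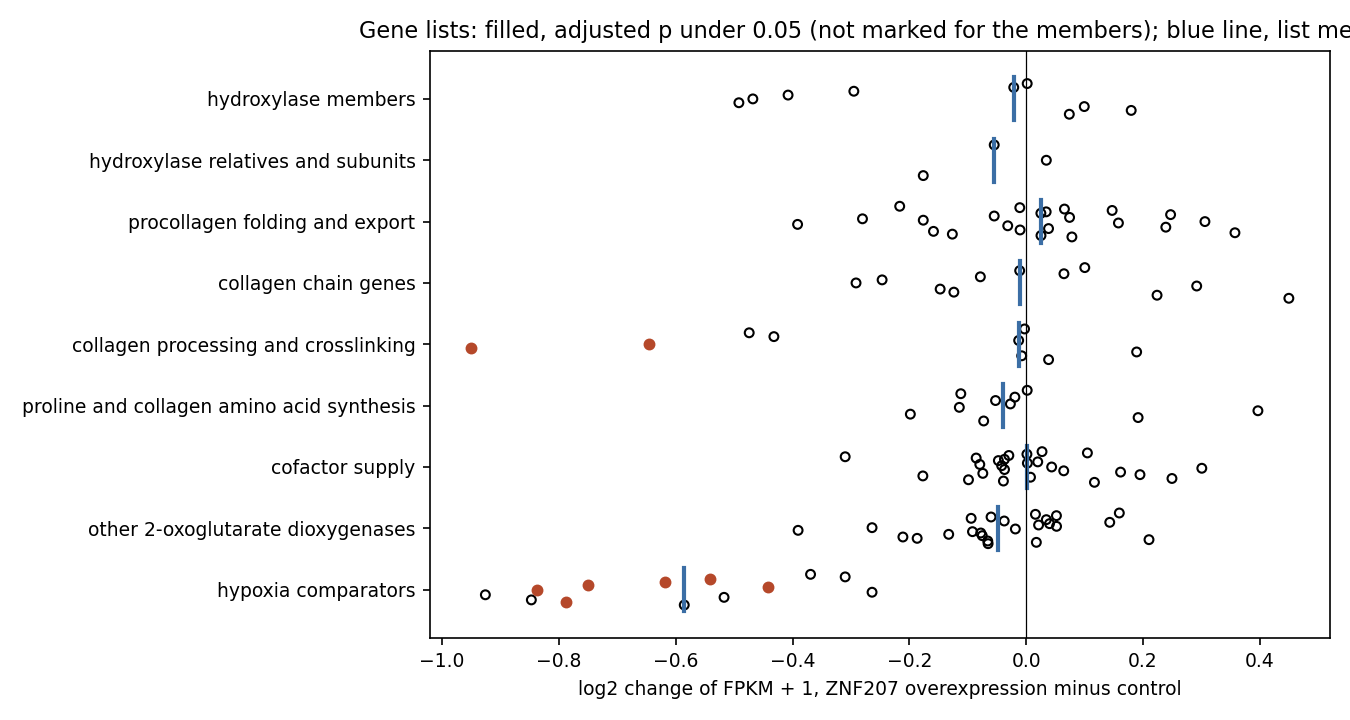
Log2 change of FPKM + 1, overexpression minus control (horizontal axis), for every tested gene of 9 lists (rows). Filled points passed the limma test at an adjusted p under 0.05, which is not marked for the 10 hydroxylase genes, and vertical blue lines are list medians. The hydroxylase genes form 1 cluster from -0.49 to -0.30 and 1 around 0, while the 13 hypoxia genes are all below 0.

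The hydroxylase genes fall into 2 groups on this plot, and their lower members lie within the range of 13 genes induced by hypoxia, which were already known to be lower in these libraries and are no independent evidence. Of these 13, 6 passed the limma threshold as lower, beside 0.159% of all tested genes. All 13 had lower, non-overlapping ranges, beside 10.4% of all tested genes. Their log2 changes ran from -0.93 to -0.26 with a median of -0.59. The log2 changes of P4HA1, P4HA2, PLOD1 and PLOD2 all lay inside that wide span, between -0.49 and -0.30. Each was smaller in size than that median, and a shared cause was not tested.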

How the data were processed

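RNA-seq values of 6 libraries were taken as the FPKM deposited by the authors, 1 column per library. The submitters' processing notes name build hg38 and the tools RSEM 1.3.1, DESeq2 1.4.5 and Bowtie2, without roles. Strand and annotation are not stated in them. Of rows that share a symbol, only the one highest on average was used. FPKM are not counts, and low values left no steps of whole reads: among 1090 low genes the commonest ratio between a pair of libraries took 1.1%. No intervals that need depth are given.

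The 13185 genes that reached 1 FPKM in 3 or more libraries were analysed as log2(FPKM + 1), a scale that understates the change of low genes. The comparison used limma 3.58.1 under R 4.3.3 (trended variance, two-sided, Benjamini-Hochberg over all tested genes, threshold 0.05), after a check on simulated data. SE values are from this fit. An exact permutation test of 3 against 3 libraries cannot go below p = 0.1.

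The members and lists were chosen with earlier results of these data known. Named were all 10 members, ZNF207, P3H2, P3H3, P4HB, PPIB and P4HTM, up to 5 called genes of each pathway list or else the 2 with the smallest p, the 3 highest collagen chains, and the 5 genes most like P4HA1, of which 1 is not reported here. Gene coordinates are from GENCODE v29 and sequences from RefSeq, both on GRCh38. The analysis was repeated with other settings of the pseudocount, the filter, the scaling, the variance model and the weights, with a block for the replicate number, and without each library.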

Additional observations from a re-analysis of the deposited data

How the results depend on the processing

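The number of genes past the limma threshold, 28 in the analysis reported, was 4 without a filter, 64 with the filter at 5 FPKM, 18 with TPM scaling, 17 with median-of-ratios scaling, 5 without a variance trend and 145 with the replicate number as a block. It ran from 4 to 36 as single libraries were dropped, a step that reduces the sample number: 9, 15 and 4 without overexpression replicates 1, 2 and 3, and 36, 9 and 14 without control replicates 1, 2 and 3. The 7 higher and 21 lower genes became 8 and 12 with quantile scaling and 6 and 11 with median-of-ratios scaling. Of the other genes of the collagen pathway, 2 were called. This was 0 without a filter (27 at an unadjusted p under 0.05 by limma), 1 with TPM, median-of-ratios or quantile scaling or without a variance trend, 1 without any single library, and 4 with the block. The cause was not tested.

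The median log2 change of the hydroxylase genes was below 0 in all 16 alternatives. It ran from -0.16 with the filter at 5 FPKM, where 8 genes remain, to -0.003 with TPM scaling. In the analysis reported this median is the value of PLOD3, so nothing is read from its sign. The range of the log2 change over the 16 alternatives was -0.53 to -0.45 for P4HA1, -0.58 to -0.37 for P4HA2, -0.43 to -0.36 for PLOD1 and -0.33 to -0.26 for PLOD2. The estimates of P3H4 (-0.04 to 0.22), PLOD3 (-0.06 to 0.00) and SERPINH1 (-0.02 to 0.03) changed sign when single libraries were left out, so no direction is given for them. Deviations of same-numbered libraries correlated at 0.136, 0.00881 and 0.175 across genes, and those of other-numbered libraries at -0.209 to 0.0705. Overexpression replicate 2 did not correlate best with its own number. The labels name no pairs, so the reported analysis used none. An effect shared by libraries of the same number is not excluded, and with the block 145 genes were called. Depth is unknown, and genes near 0 FPKM such as P4HA3 and P3H3 cannot be compared.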
